A study of Mus musculus with 12 samples.

Results

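3 of 12 mouse lymphomas carried a bright signal for Cd3g, a chain of the CD3 complex of T cells, and are compared here with the other 9. The rule took the samples in which the log2 level of the Cd3g probe was above 9: wildtype 1, wildtype 6 and null 1. All 12 were end-stage lymphomas of C57BL/6 mice with the Eµ-Myc transgene, in which an immunoglobulin heavy chain enhancer drives Myc in B-lineage cells. They were harvested fresh and purified by cell sorting, and the labels name no sort marker. By genotype, 6 came from mice wildtype for Smchd1, a silencing factor of the inactive X chromosome, and 6 from null mice, homozygous for a gene trap allele of it. The bright group thus held 2 wildtype samples and 1 null sample, and the others held 4 wildtype and 5 null samples. The labels do not say that each sample came from a separate mouse, so the p-values below measure only the spread between samples. Because the samples were picked by a measured level and not by a treatment, a p-value here describes which genes go with that level in these 12 samples and tests no condition.

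A T cell reads peptide on MHC molecules through a receptor of an alpha and a beta chain. The alpha chain is built by joining variable and joining segments, and the beta chain has a diversity segment as well. The receptor has no signalling tail of its own and relies on CD3 gamma, delta, epsilon and zeta (genes Cd3g, Cd3d, Cd3e and Cd247), whose tyrosine motifs are phosphorylated by the kinase Lck and then bind the kinase Zap70. B cells build their own receptor from immunoglobulin heavy and light chains by the same joining process, show antigen on MHC class II and, once mature, display receptors such as CD23 and CD21. A sample of bulk RNA mixes all cells in it, so fewer cells of a type and less RNA per cell cannot be told apart.

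Cd3g, Cd3d and Cd3e are close neighbours on mouse chromosome 9. The 250 bases before each start site are shown because these genes chose and label the samples. They come from RefSeq (GRCm38.p6), read 5′ to 3′ on the gene's strand. Capitals mark the E-box CAGGTG and the ETS core AGGAAG on either strand. The 3 genes were matched by symbol.
Cd3g (chr9:44980432-44980681, minus strand): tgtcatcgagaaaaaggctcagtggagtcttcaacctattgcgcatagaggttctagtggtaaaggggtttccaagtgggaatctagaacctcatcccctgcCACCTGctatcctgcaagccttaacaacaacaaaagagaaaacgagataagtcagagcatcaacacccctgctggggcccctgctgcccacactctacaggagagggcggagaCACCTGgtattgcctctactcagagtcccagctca
Cd3d (chr9:44981536-44981785, plus strand): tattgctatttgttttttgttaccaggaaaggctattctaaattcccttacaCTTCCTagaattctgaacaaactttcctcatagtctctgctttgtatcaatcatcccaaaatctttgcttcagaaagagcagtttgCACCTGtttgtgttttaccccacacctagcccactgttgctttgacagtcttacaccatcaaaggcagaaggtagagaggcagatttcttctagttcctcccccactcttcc
Cd3e (chr9:45009612-45009861, minus strand): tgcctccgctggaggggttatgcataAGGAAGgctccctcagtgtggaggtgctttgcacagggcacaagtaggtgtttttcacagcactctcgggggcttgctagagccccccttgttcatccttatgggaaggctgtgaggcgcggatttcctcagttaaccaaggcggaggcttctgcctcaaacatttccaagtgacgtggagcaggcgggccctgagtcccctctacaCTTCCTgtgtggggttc
The Cd3g window held 2 E-boxes and 0 ETS cores, the Cd3d window 1 of each, and the Cd3e window 0 E-boxes and 2 ETS cores. A RUNX core, TGTGGT on either strand, was searched as well and was in 0 of the 3 windows. Over 32851 promoter windows of the same length, 17.2% held CAGGTG, 29.5% AGGAAG and 14.0% TGTGGT. Such matches are frequent and describe letters only.

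The arrays, Illumina MouseWG-6 version 2, sat on 2 BeadChips of 6 samples each. Wildtype 1 was on BeadChip 1, and wildtype 6 and null 1 were on BeadChip 2. Each bright sample had more probes detected than any other sample of its BeadChip, with 17724 against 16303 to 17679 on BeadChip 1 and 15700 and 15811 against 14905 to 15488 on BeadChip 2. Its part in the results was not tested. Smchd1 followed the labels. Its brightest probe read 9.57 to 10.5 in the wildtype samples and 5.15 to 6.95 in the null samples, and the highest null value was that of null 1. 2 of the other samples, wildtype 2 and null 2, stood apart. Their Pou2af1, a B cell coactivator, lay near background at 4.49 and 4.91 against 10.7 to 13.64 in the other 10. They had the highest levels of Batf3, a dendritic cell transcription factor, at 9.24 and 9.97 against 4.34 to 5.24. Counts and medians for mature B cell genes and immunoglobulin variable segments, and counts for MHC class II genes, are therefore also given without both samples.

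The CD3 genes were high together in the 3 bright samples, and null 1 had the highest level of Cd3g, Cd3d and Cd3e. All levels are log2 intensities after background correction and quantile normalization, with the floor near 4. Cd3g, with 1 probe on the array, read 9.33 in wildtype 1, 9.19 in wildtype 6 and 11.85 in null 1. In the others it read 6.92, 4.89, 6.81 and 6.43 in wildtype 2 to 5 and 7.95, 5.45, 5.48, 5.72 and 5.5 in null 2 to 6. Wildtype 6 was the sample just inside the rule and null 2, at 7.95, the one just outside, and no sample lay between them.

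Cd3d, whose product pairs with CD3 epsilon, read 9.37 in wildtype 1, 8.78 in wildtype 6 and 11.95 in null 1. The others spanned 4.58 to 7.85 with a median of 5.52, and null 2 was again their highest. Cd3e had 2 probes. The brightest one in the mean read 8.6, 6.96 and 10.56 in wildtype 1, wildtype 6 and null 1, against 4.31 to 6.92 in the others, so wildtype 6 was barely above null 2. Its second probe read 9.47, 7.56 and 10.41 against 4.3 to 6.15, a clear separation. Since these genes chose or label the group, their differences are a description and no p is given for them. The mean difference, with genotype and BeadChip as terms, was 3.86 for Cd3g, 4.39 for Cd3d and 3.5 for Cd3e on the log2 scale.

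Cd247, which encodes the zeta chain that carries most of the signalling motifs, ran in another order. It read 5.77 in wildtype 1, 9.2 in wildtype 6 and 7.88 in null 1, and was detected on none of the other 9 arrays, where it lay between 4.49 and 5.07. Against the lowest signal that counted as detected, the bright group was at least 6.13-fold higher. Wildtype 6, the lowest of the 3 for Cd3g, was thus the highest for Cd247, and both of its dimmer probes gave wildtype 6 the highest value too.

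**Figure D1:**
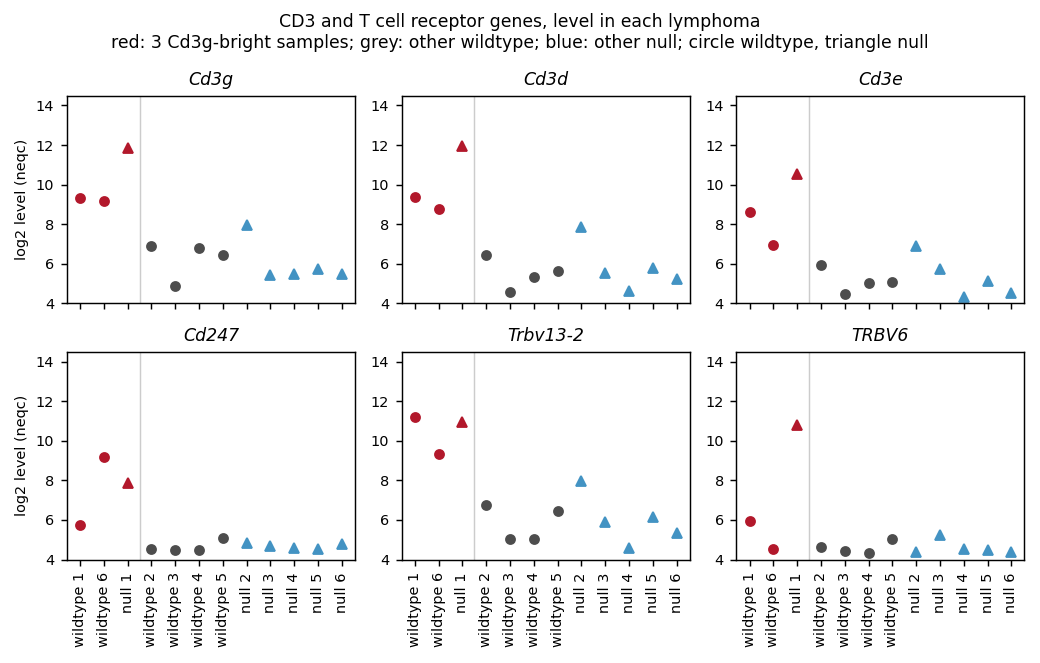
Log2 level (neqc, vertical axis) of CD3 and T cell receptor genes in each lymphoma (horizontal axis). Red markers are the 3 samples picked by Cd3g, circles are wildtype and triangles null. The plotted probes of Cd3g, Cd3d, Cd247 and Trbv13-2 separate the 3 samples from the other 9. A second Trbv13-2 probe, not plotted, does not. TRBV6 reads 10.81 in null 1 and 4.35 to 5.94 elsewhere.

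The variable segments of the T cell receptor beta chain differed among the 3 samples. Of 13 beta variable probes, 10 were detected in wildtype 1, 4 in wildtype 6 and 2 in null 1, against 0 to 4 in the others. Trbv13-2 had 2 probes. The brighter one read 11.22 in wildtype 1, 9.33 in wildtype 6 and 10.93 in null 1. It read 4.56 to 7.97 in the others, with null 2 highest. The second read 6.14, 5.65 and 4.72 in the same order and overlapped the others, which read 4.3 to 6.2. TRBV6 read 10.81 in null 1, 5.94 in wildtype 1 and 4.51 in wildtype 6, with the others at 4.35 to 5.25. TRBV8 and Trbv13-1 went the other way. TRBV8 read 6.44 in wildtype 1 and 5.56 in wildtype 6 but 4.65 in null 1, and Trbv13-1 read 6.16, 5.71 and 4.65 in the same order. Null 1 therefore had 2 bright beta probes, and no other, such as the second of Trbv13-2, was detected. Wildtype 1 had the brighter Trbv13-2 probe at a like level and many others at lower levels. Beta segments are closely related and the probe sequences were not used here, so reads of one segment by the probe of another cannot be told apart.

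The alpha and gamma chains were hardly seen. Of 25 alpha variable probes 0 to 1 were detected in a bright sample and 0 to 2 in the others, and of 8 gamma variable probes 0 to 1 and 0 to 2. Trac, the constant segment of the alpha chain, was detected on no array and read 4.35 to 4.4 in the bright samples. The co-receptors of the main T cell subsets differed. Cd8a was detected on no array with either probe. Cd4 read 4.58, 5.36 and 5.56 in wildtype 1, wildtype 6 and null 1, below the 7.48 of wildtype 2. Cd8b1 gave different answers by probe. One probe read 10.68 to 11.78 over all 12 samples. The second read 10.11, 12.06 and 12.6 in the bright samples but 14.11, 13.54 and 13.64 in wildtype 2, null 2 and null 5. The third ran alike, at 6.42, 8.75 and 8.93 in the bright samples and 11.39, 10.98 and 10.68 in wildtype 2, null 2 and null 5. On both of these probes the bright samples thus had a signal, below that of those 3 other samples. The CD3 chains chose the samples, so they are no check of the label, and the number of beta probes detected stood outside the range of the others in wildtype 1 only. Cd8a, Cd4 and nearly all alpha segments lay at or near background in the bright samples.

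Across all genes, 781 were higher and 531 lower in the bright samples, of 12822 tested with limma at an adjusted p under 0.05, which is 10.2% in all, 6.09% higher and 4.14% lower. The median difference over all genes was -0.06 on the log2 scale. The 781 include 5 CD3 or T cell receptor genes, Cd3g among them, which the choice of samples put there and which are no finding. They also include 19 genes detected on no other array, which had to differ once they passed the detection filter. All genes detected on fewer than 3 of the other arrays needed the bright samples to pass that filter. Of 11989 genes detected on 3 or more of the other arrays, 643 were higher and 508 lower. With no overlap between the groups lay 562 genes on the higher side, 4.38%, and 330 on the lower side, 2.57%. The number of calls hung on single samples. It fell to 11 higher and 1 lower without wildtype 1 and to 27 and 3 without null 1, and rose to 1205 and 1097 without wildtype 6. Of the others, leaving out null 3 gave 518 higher and 270 lower, and the lower count was 346, 276 and 310 without wildtype 2, 3 and 5. All 1312 called genes kept their sign without wildtype 1, without null 1 and without wildtype 6, which share most samples with the full set. Without wildtype 1 the bright samples lie on BeadChip 2 only. The medians of gene lists given below without wildtype 1 therefore equal those of BeadChip 2 alone and are no separate check. Within the BeadChips, with 1 bright sample on the first and 2 on the second, 0 genes passed, and 2158 and 1408 had an unadjusted p under 0.05 in limma. Under median scaling in place of quantile normalization the split was 502 higher to 55 lower.

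10 genes passed whichever of the 3 bright samples was left out, but not all of them passed the detection filter without these samples. Among the 10, Ppl, Ighv1-62-3, Oosp1 and Kit were detected on 1, 1, 2 and 0 of the other arrays. They passed the filter through the bright samples, where they were high. Zbtb20, Atp8a1, Plxnb2 and A230057M07RIK were detected on 3, 9, 9 and 5 of the other arrays. Zbtb20, a zinc finger repressor of B and plasma cells, read 7.4, 6.85 and 6.77 in wildtype 1, wildtype 6 and null 1 and 4.36 to 5.63 in the others, a 4.81-fold difference (log2 2.27 ± 0.23 SE, adjusted p = 0.00302). Atp8a1, a phospholipid flippase, was the most even, at 9.18, 9.03 and 9.12 against 7.07 to 8.14 (3.04-fold, adjusted p = 0.00324). Plxnb2, a receptor for semaphorins, was lower at 7.11, 6 and 5.6 against 7.87 to 9.3 (4.39-fold, adjusted p = 0.00302). None of these 3 overlapped between the groups. Ppl, which encodes the junction protein periplakin, read 6.21 to 7.65 against 4.31 to 5.09, and Ighv1-62-3, a heavy chain variable segment, 7.4 to 8.96 against 4.32 to 5.67. Kit, the stem cell factor receptor, lay at 5.57 to 6.37 and was detected on no other array, so the bright samples were at least 1.8-fold higher. A230057M07RIK read 7.63 to 9.32 against 4.53 to 6.64.

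**Figure D2:**
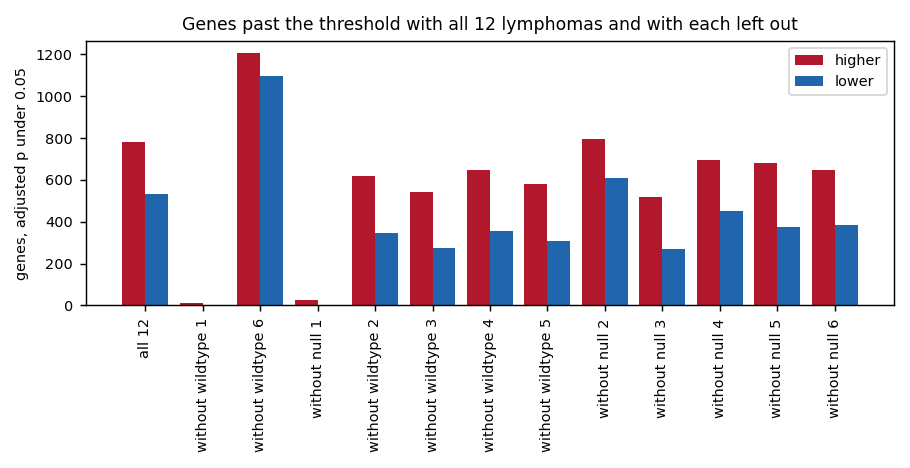
Number of genes (vertical axis) past the adjusted p threshold of 0.05 with all 12 lymphomas and with each one left out in turn (horizontal axis), red for higher and blue for lower in the Cd3g-bright samples. The counts of 781 and 531 fall to 11 and 1 without wildtype 1 and to 27 and 3 without null 1.

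Genes that work downstream of the T cell receptor leaned higher. Of 16 tested signalling genes 4 rose and 0 fell, beside 6.09% higher over all genes. All 16 had a positive difference, and the median was 1.03 against -0.06 for all genes. Of the 15 detected on 3 or more of the other arrays, 3 rose, with a median of 0.98. Lck, the kinase that starts the cascade, read 10.3, 9.17 and 10.5 in wildtype 1, wildtype 6 and null 1 and 6.52 to 8.73 in the others, 5.44-fold higher (log2 2.44 ± 0.43 SE, adjusted p = 0.0134). The groups did not overlap. Lat, the membrane adaptor of the cascade, read 6.72, 6.11 and 8.74 (5.93-fold, adjusted p = 0.0112). It was detected on 1 of the other arrays and so passed the filter through the bright samples. Nfatc1, a calcium-dependent transcription factor that B cells also use, was 2.34-fold higher. Zap70 read 9.01, 10.19 and 10.81 but reached 9.35 in wildtype 4 and 8.93 in wildtype 3, and did not pass (log2 2.61 ± 0.90 SE, adjusted p = 0.0884). Without wildtype 1 or without null 1, 0 of the 16 passed, with medians of 0.92 and 0.76. Within the BeadChips the median was 1.03 on BeadChip 1 and 0.92 on BeadChip 2.

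Among 15 T cell surface genes 3 rose and 0 fell, beside 6.09% higher over all genes, with a median of 1.04. Of the 12 detected on 3 or more of the other arrays, 2 rose, with a median of 1.25. Icos, detected on 2 of those arrays, is not among the 12. Cd27, a TNF receptor family member of T cells and memory B cells, had the widest gap, at 9.88, 8.18 and 10.58 against 4.69 to 6.42 (19.5-fold, log2 4.29 ± 0.49 SE, adjusted p = 0.00338). Its groups were far apart, and null 2 came closest at 6.42. Tnfrsf4, the co-stimulator OX40, was 2.32-fold higher and Icos, a CD28 relative, 1.72-fold, and both lay close to the threshold (adjusted p = 0.0363 and 0.0496). Thy1 read 8.9, 8.07 and 12.13 but also 9.59, 10 and 11.02 in wildtype 2, null 2 and null 5, and Cd6 reached 10.78 in wildtype 2. Neither passed. Cd27 was the 1 member of this list that passed without null 1.

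Of 8 T lineage transcription factors 4 rose, beside 6.09% higher over all genes, 0 fell and the median was 1.3. Bcl11b, Tox and Tcf7 were detected on 2, 1 and 0 of the other arrays and so passed the filter through the bright samples. Of the 3 factors detected on 3 or more of the other arrays 0 passed and the median was 0.1, so the count is no finding about the list. Bcl11b, which commits thymic progenitors to the T lineage, read 7.76, 6.52 and 9.72 against 4.32 to 5.83 (9.26-fold, log2 3.21 ± 0.50 SE, adjusted p = 0.00861). Tcf7 was detected on none of the other arrays and read 5.95, 5.2 and 7.94, at least 2.57-fold higher, with null 1 highest. Tox, a nuclear factor of T cell development and exhaustion, read 7.39, 5.64 and 7.98 against 4.33 to 5.18. Satb1, a chromatin organiser of thymocytes, read 12.16, 10.01 and 12.15 but reached 11.48 in null 4, and its adjusted p was 0.0485. For Foxp3, the regulatory T cell factor, 3 probes were not detected in any bright sample and the fourth read 9.11 to 10.34 over all 12 samples. The 4 calls were lost without wildtype 1 or without null 1.

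Genes of natural killer and cytotoxic cells separated the bright samples from each other. Over 14 tested genes the mean level was 7.34 in wildtype 1 and 6.96 in wildtype 6, above the 4.92 to 6.05 of the others, but 5.74 in null 1, inside that range. These means include genes that passed the detection filter through the bright samples. 2 genes rose and 0 fell, beside 6.09% higher over all genes, with a median of 0.91, or 1.68 without null 1. Of the 10 detected on 3 or more of the other arrays, 2 rose, with a median of 1.09. Cd160, a receptor of cytotoxic lymphocytes, read 7.15, 7.92 and 7.25 in wildtype 1, wildtype 6 and null 1 against 4.36 to 5.95 (5.49-fold, adjusted p = 0.00578). Klrd1, the CD94 chain, read 8.47 and 8.12 in the wildtype samples but 5.67 in null 1, with 7.05 in null 5. Klre1 was at 7.02 and 6.85 in the same wildtype samples and at background, 4.37, in null 1, and did not pass. It was detected on 1 of the other arrays and so met the detection filter through the bright samples. Ccl5, a chemokine of activated T and NK cells, read 10.05 and 8.52 in wildtype 1 and wildtype 6 and 4.71 in null 1, with up to 8.86 in the others, and did not pass. Nkg7, a cytotoxic granule protein, read 9.64, 8.1 and 6.15 against 4.63 to 8.43. Prf1, the pore protein perforin, read 9.62, 9.27 and 9.99 against 8.1 to 9.44 and did not pass either. Ncr1, the NKp46 receptor of NK cells, was detected on no array. The list's median was 1.74 on BeadChip 1 and 0.61 on BeadChip 2, and without wildtype 1 0 genes passed.

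Mature B cell genes were higher as well, in samples picked for a T cell gene. Of 29 tested, 7 rose and 0 fell, beside 6.09% higher over all genes, 28 had a positive difference and the median was 1.28. Of the 28 detected on 3 or more of the other arrays, 5 rose, with a median of 1.23. Fcer2a, which encodes CD23 of mature follicular B cells, read 12.22 in wildtype 1, 8.79 in wildtype 6 and 13.05 in null 1. The others spanned 4.42 to 9.25 with a median of 4.72, so null 5 lay above wildtype 6. The difference was 64.1-fold (log2 6.00 ± 1.14 SE, adjusted p = 0.0164), and within the BeadChips it was 7.75 on BeadChip 1 and 5.14 on BeadChip 2 on the log2 scale. Cr2, the complement receptor CD21, read 7.72, 5.58 and 8.24 against 4.31 to 5.41 (6.43-fold, adjusted p = 0.0101). It was detected on 2 of the other arrays and so passed the filter through the bright samples.

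Ighd, the heavy chain of IgD that marks naive B cells, read 9.61, 6.17 and 8.71, with 4.3 to 6.59 in the others, so wildtype 6 fell inside their range. Fcmr, the IgM Fc receptor, read 14.4, 13.82 and 14.14 against 7.7 to 12.62, with no overlap. Cxcr5, the receptor that leads B cells into follicles, read 12.51, 10.64 and 12.3 against 6.33 to 10.28. Cd83, an activation marker, was 23.6-fold higher and Bcl6, the repressor of germinal centre B cells, 8.35-fold. For Cd83 null 5 read 9.47, above the 8.55 of wildtype 6. For all 7 genes wildtype 6 was the lowest of the bright samples.

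The genes that define the whole B lineage moved less. Cd79b, a signalling chain of the B cell receptor, read 13.88, 13.35 and 13.91 and 12.16 to 13.71 in the others, and did not pass (adjusted p = 0.24). Ms4a1, the surface protein CD20, was 3.89-fold higher without passing (adjusted p = 0.139). Ighm, the IgM heavy chain, read 14.23, 14.63 and 14.28 against 13.51 to 14.41. Leaving out wildtype 2 and null 2, the pair near background for Pou2af1, gave 8 mature B genes higher and a median of 0.80. Without wildtype 1 or without null 1, 0 of the 29 passed, with medians of 0.80 and 1.28. The median was 1.85 on BeadChip 1 and 0.80 on BeadChip 2.

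MHC class II genes rose with them. 4 of 9 passed, beside 6.09% higher over all genes, 0 fell, all 9 had a positive difference and the median was 1.32. Ciita, the transactivator that controls the class II genes, read 12.32, 10.62 and 12.16 in wildtype 1, wildtype 6 and null 1 against 8.8 to 9.88 (5.88-fold, log2 2.56 ± 0.32 SE, adjusted p = 0.00486). The groups were apart, and the difference was 3.07 on BeadChip 1 and 2.13 on BeadChip 2. H2-Oa and H2-Ob, the chains of the peptide-loading regulator H2-O of B cells, read 11.47 to 13.57 and 11.02 to 13.25 against 9.39 to 11.14 and 9.14 to 10.99. H2-Aa, a classical class II chain, was 2.66-fold higher. Cd74, the invariant chain, stood at 14.15 to 14.71 in all 12 samples, close to the top of the scale. Without wildtype 2 and null 2, 7 of the 9 passed, and without wildtype 1 or without null 1, 0 did, with medians of 1.13 and 1.22. The median was 1.34 on BeadChip 1 and 1.13 on BeadChip 2.

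Ccr6, a chemokine receptor of mature B cells and of T cell subsets, was the 1 of 11 homing genes that passed, a share near the 6.09% higher over all genes. It read 12.29, 10.69 and 12.84 against 4.85 to 10.15 with a median of 6.52 (41.7-fold, log2 5.38 ± 0.93 SE, adjusted p = 0.0124). Null 5 was the highest of the others for Ccr6, as it was for Fcer2a and Cd83, where it lay above wildtype 6. The call for Ccr6 was lost without wildtype 1 or without null 1.

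**Figure D3:**
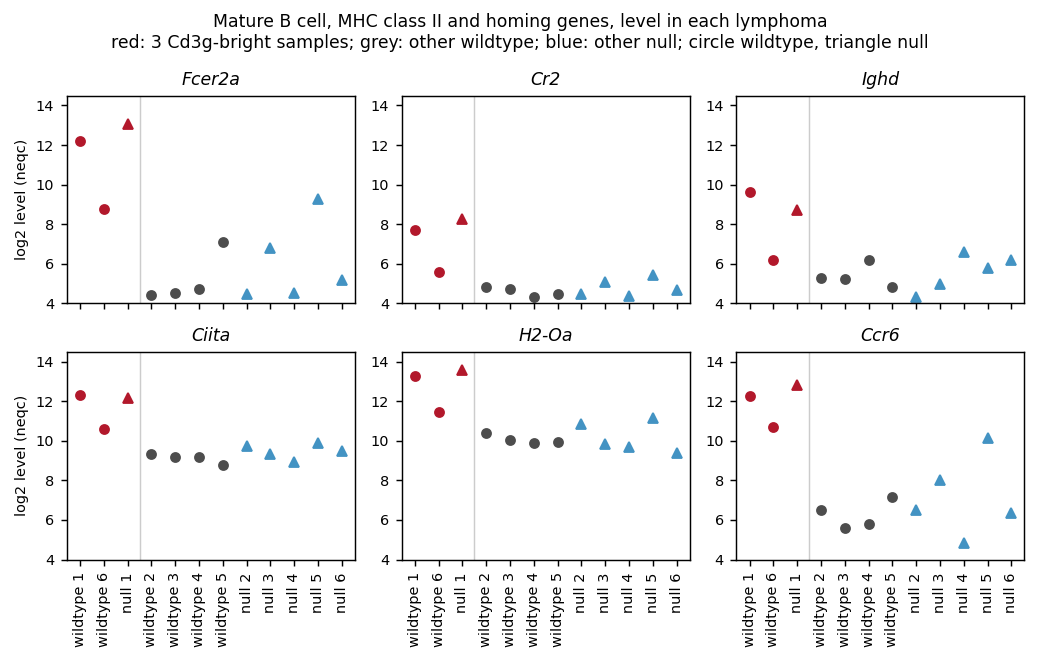
Log2 level (neqc, vertical axis) of mature B cell, MHC class II and homing genes in each lymphoma (horizontal axis). Red markers are the 3 samples picked by Cd3g, circles are wildtype and triangles null. Ciita, H2-Oa and Ccr6 separate the groups, while Fcer2a and Ighd in wildtype 6 (8.79 and 6.17) lie within the range of the other samples.

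The 3 samples also carried many immunoglobulin variable segments. In wildtype 1, wildtype 6 and null 1, 77, 67 and 66 of 114 variable probes were detected, against 65 in null 5 and 6 to 44 in the others. This list was chosen after its values were seen. Of 68 tested segment genes 33 were higher and 0 lower, beside 6.09% higher over all genes. 67 had a positive difference and the median was 2.77. Many passed the filter through the bright samples. Of the 46 detected on 3 or more of the other arrays 19 were higher, with a median of 3.01. Without null 1, 6 passed the threshold, and without wildtype 1, 1 did, with medians of 2.58 and 2.53. Leaving out wildtype 2 and null 2 together gave 30 higher and a median of 2.3. The median was 3.68 on BeadChip 1 and 2.53 on BeadChip 2. The number of probes detected separated the groups for the heavy chain but not for the kappa light chain. Of 47 kappa probes 41, 36 and 39 were detected in wildtype 1, wildtype 6 and null 1, and 39 in null 5. Of the heavy chain probes 25 to 34 were detected in a bright sample and 2 to 24 in the others. Of 65 heavy variable probes 23, 21 and 18 were above a log2 level of 6 in wildtype 1, wildtype 6 and null 1, while null 5 had 12 and the others 0 to 5.

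Single segments showed the contrast in form. IGHV1S35 read 11.21, 11.35 and 10.65 in wildtype 1, wildtype 6 and null 1 and 4.46 to 9.07 in the others, and IGHV1S124 8.71, 9.05 and 8.26 against 4.34 to 6.2. IGHV1S124 was detected on 2 of the other arrays and so passed the detection filter through the bright samples. IGHV10S1 was highest in wildtype 4, at 12.28, where the bright samples read 7.5, 10.49 and 8.16 and the other samples 4.4 to 6.29. IGHV1S119 was highest in wildtype 3 and null 6, at 12.74 and 12.26, with 10.39, 10.74 and 10.05 in the bright samples and 4.32 to 8.76 elsewhere. Thus IGHV10S1 and IGHV1S119, high in 1 or 2 of the other lymphomas, lay at a middle level in all 3 bright samples. These segments are close copies of each other, and signal shared between their probes was not tested. IGHV1S35, IGHV10S1 and IGHV1S119 were chosen after their values were seen.

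**Figure D4:**
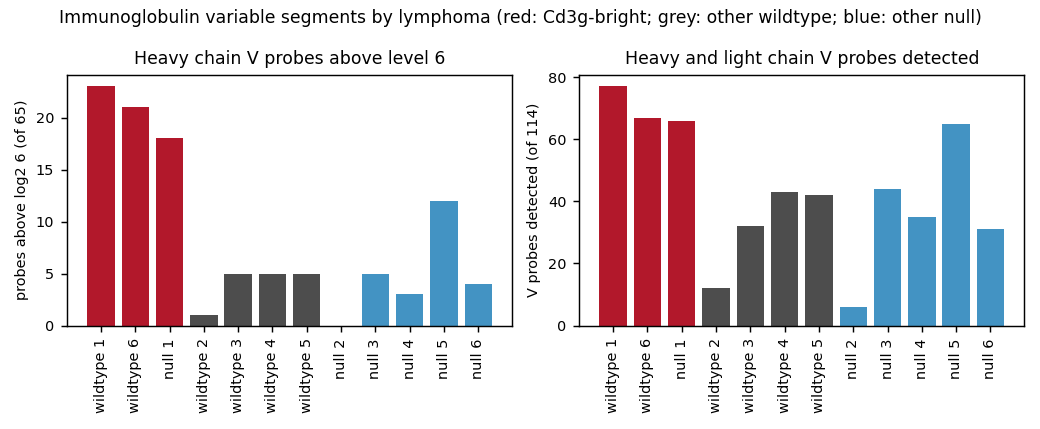
Number of immunoglobulin variable probes (vertical axes) above a log2 level of 6 among 65 heavy chain probes (left) and detected among 114 heavy and light chain probes (right) in each lymphoma (horizontal axes). Red bars are the 3 Cd3g-bright samples, grey other wildtype and blue other null. The red bars reach 18 to 23 on the left and 66 to 77 on the right, and null 5 comes closest with 12 and 65.

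Cell cycle genes were lower, most of all in wildtype 1. Of 23 tested, 9 fell and 0 rose, beside 4.14% lower over all genes, all 23 had a negative difference and the median was -1.45. Their mean level was 7.96 in wildtype 1, 8.89 in null 1 and 10.32 in wildtype 6, against 9.93 to 10.76 in the others, so wildtype 6 lay inside that range. Tyms, which makes thymidylate for DNA synthesis, read 8.15, 10.16 and 10.26 in wildtype 1, wildtype 6 and null 1 and 10.32 to 11.79 in the others (3.41-fold lower, log2 -1.77 ± 0.34 SE, adjusted p = 0.0174). Rrm2, a subunit of ribonucleotide reductase, read 5.5, 9.03 and 7.58 against 8.68 to 10.28 (4.38-fold lower, adjusted p = 0.0251). Wildtype 6 thus kept the level of the others for Rrm2.

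The mitotic kinases Aurka, Aurkb and Plk1 were 3.35-fold, 3.69-fold and 2.93-fold lower. The replication factors Cdc6, Cdc45 and Mcm6 were 3.56-fold, 3.76-fold and 2.39-fold lower. For all 6 of these genes wildtype 6 lay within the range of the other samples, with Aurkb at 11.17, Plk1 at 11.77 and Cdc45 at 10.02. Leaving out wildtype 6 raised the count to 21 of 23 with a median of -1.95, and leaving out wildtype 1 or null 1 ended it at 0 with medians of -0.86 and -1.27. Within the BeadChips the median was -2.37 on BeadChip 1 and -0.86 on BeadChip 2. Under median scaling 3 fell with a median of -1.48.

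Of 18 Myc and ribosome biogenesis genes 3 fell and 0 rose, beside 4.14% lower over all genes, with a median of -0.62. Myc itself, the oncogene driven by the transgene, read 7.46, 8.6 and 8.86 in wildtype 1, wildtype 6 and null 1 against 8.7 to 9.48 (1.89-fold lower, log2 -0.92 ± 0.23 SE, adjusted p = 0.0352). Wildtype 1 was the lowest of all 12 samples, and null 1 lay inside the range of the others. The nucleolar factors Bop1 and Wdr43 were 1.76-fold and 1.56-fold lower. All 3 calls were lost without wildtype 1, without null 1 and under median scaling. Of 57 histone genes 5 fell (H2ac4, H4c9, H1f5, H3c3 and H1f1) and 1 rose, with a median of -0.83, and these calls are a share near the 10.2% over all genes. H2ac18, the 1 that rose, read 10.2, 9.16 and 10.62 against 7.81 to 9.43 (3.07-fold). The count that fell went to 25 without wildtype 6 and to 0 without wildtype 1, without null 1 and under median scaling. The median was -1.28 on BeadChip 1 and -0.28 on BeadChip 2.

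**Figure D5:**
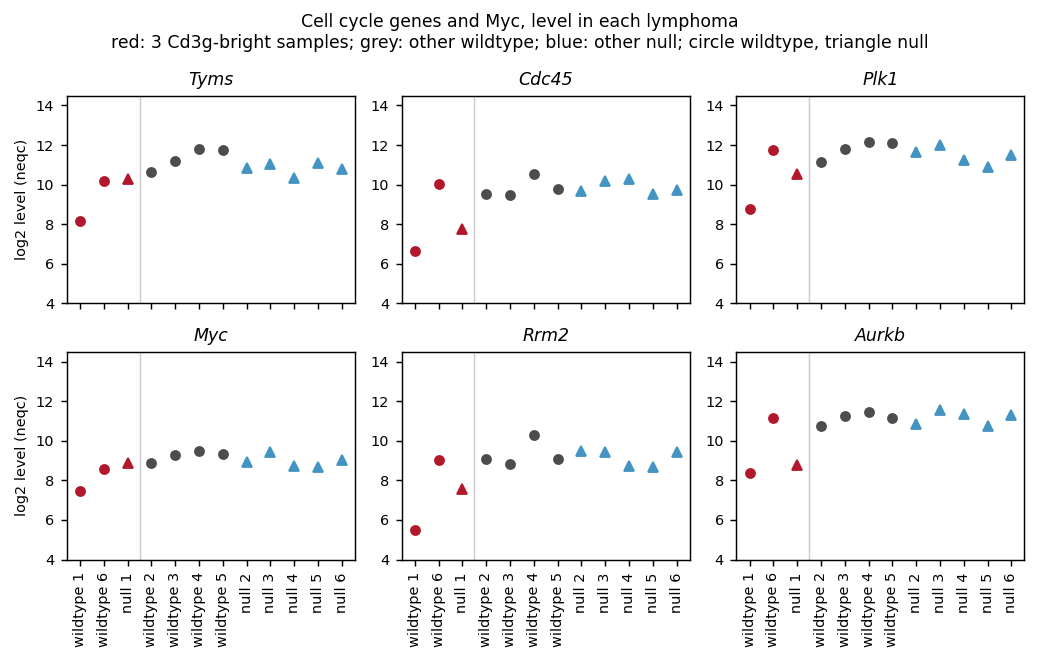
Log2 level (neqc, vertical axis) of cell cycle genes and Myc in each lymphoma (horizontal axis). Red markers are the 3 samples picked by Cd3g, circles are wildtype and triangles null. Wildtype 1 is lowest in all panels, and wildtype 6 lies within the range of the other samples for Cdc45, Plk1, Rrm2 and Aurkb.

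Among the lower genes with the smallest p, Spred1, an inhibitor of Ras signalling, read 5.22, 5.68 and 5.56 in wildtype 1, wildtype 6 and null 1 against 7.15 to 9.44, 7.5-fold lower with no overlap (log2 -2.91 ± 0.44 SE, adjusted p = 0.00824). Melk, a mitotic kinase, read 4.7, 5.49 and 5.27 against 6.42 to 7.16. Mtif3, a mitochondrial translation factor, read 7.8 to 8.52 against 9.26 to 9.82, and Ahcy, which clears S-adenosylhomocysteine, 8.93 to 9.97 against 10.29 to 11.16. Nasp, a histone chaperone, Wdr4 and Nsun2, factors of tRNA methylation, and Rrp1b, a nucleolar protein, were 2.86-fold to 3.19-fold lower with no overlap. Mfge8, which bridges dying cells to phagocytes, was 2.93-fold lower, with 10.59 in wildtype 6 inside the range of the others. Rrp1b was the 1 of these that passed without null 1, and none of them passed without wildtype 1. On the higher side Macf1, a cytoskeletal linker, read 7.45 to 9.42 against 5.76 to 7.42.

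Interferon and immediate early genes were higher in part. Of 13 interferon genes 3 rose, beside 6.09% higher over all genes, 0 fell and the median was 1.22. Ifit3 read 8.1, 8.9 and 10.04 in wildtype 1, wildtype 6 and null 1 against 4.76 to 8.07 (9.38-fold, adjusted p = 0.0136), with null 5 at the top of the others. Isg15, a ubiquitin-like protein, read 7.89, 6.93 and 7.61, but null 5 read 7.79. Gbp3, a guanylate-binding protein, was 2.87-fold higher. Of 10 immediate early genes Egr1, Egr2 and Zfp36 rose, beside the same 6.09%, 0 fell and the median was 0.58. Egr1, a transcription factor induced by antigen receptor signals, read 10.6, 9.27 and 10.08 against 5.83 to 9.02 (6.62-fold, adjusted p = 0.0252), with no overlap. The calls in both lists were lost without wildtype 1 or without null 1.

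Markers of other cell types that a sort could hold were counted in the same fit. With all 12 samples no gene passed in either direction among 18 macrophage and monocyte genes, 5 dendritic cell, 14 neutrophil, 12 erythroid, 2 platelet, 6 stromal and endothelial, 8 plasma cell and 6 immature thymocyte genes, with medians of 0.42, 0.28, 0.19, 0.17, -0.38, -0.16, 0.34 and 0.08. Over all genes 10.2% were called. Without wildtype 6, 2 macrophage genes and 1 thymocyte gene rose, and without wildtype 2 and null 2, 1 dendritic cell, 1 stromal and 1 thymocyte gene did. The mean erythroid level was 5.79, 5.17 and 7.05 in wildtype 1, wildtype 6 and null 1, with 4.87 to 7.02 in the others, and the mean macrophage level 6.78, 6.24 and 6.34 with 5.37 to 7.33. The mean neutrophil level was 6.09, 6.29 and 7.75 with 5.06 to 7.32. Null 1 was thus the highest of all 12 samples for both the erythroid and the neutrophil list, and their part in the results was not tested. Siglech, a marker of plasmacytoid dendritic cells, read 7.87, 7.77 and 5.29 in the bright samples but 10.99, 9.7 and 10.67 in wildtype 2, null 2 and null 5. Of 7 activation and checkpoint receptors Icos was the 1 that passed, and of 9 pro-B and pre-B genes Kit was, with a median of -0.37. Icos and Kit were detected on 2 and 0 of the other arrays, and of the members detected on 3 or more of the others 0 of 5 and 0 of 7 passed. Rag1, which cuts receptor segments for joining, read 4.89, 4.84 and 5.21 in the bright samples, below the 7.21 of wildtype 4, and Dntt, the enzyme that adds bases at the joints, was detected on no array.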

How the data were processed

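Levels of RNA were measured on 12 Illumina arrays, 1 per lymphoma. Per the file headers, the deposited intensity of a probe is the average over its beads, not normalized, and the deposited detection values are a fraction, 1 minus the detection p-value. Tools listed in the submitters' processing notes were limma 3.12.1, R 2.15.1 and BeadStudio. The authors' deposited log2 values differed from neqc of the intensities by at most 5e-09. A second deposited table held the same intensities and detection values.

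Here neqc (limma 3.58.1, R 4.3.3) used 936 negative controls and an offset of 16. Probes with detection p under 0.05 on 3 or more arrays were kept, and the brightest probe a gene (12822 genes). Of 30774 target names 15991 matched a RefSeq symbol (GRCm38.p6), 5826 a synonym and 887 a gene ID. Bright minus others was fitted with lmFit and eBayes, with genotype and BeadChip as terms and Benjamini-Hochberg adjustment. CD3 and T cell receptor genes stayed in this fit across all genes, but no p is given for them, since they chose the samples. For genes detected on no array of a group, bounds are given as at least N-fold, against the lowest detected signal.

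The samples, the gene lists and the rule for named genes were chosen with earlier results of these data known. The rule takes CD3 and T cell receptor probes, up to 15 genes a direction by p, up to 8 called members a list and set markers, and not every gene it takes is printed. The fit was tested on simulated data. Alternatives changed the terms, scaling, filter, weights and samples. The number of arrays limits the precision.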

Additional observations from a re-analysis of the deposited data

Results flagged for a closer look

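Among the 9 other samples, 7 values of genes named above lay far from the rest of their group by Dixon's test, which chance alone gives in about 1 of 20 groups, and 84 genes were looked at. Null 5 gave 4 of them, with Ighv1-62-3 at 5.67 against 4.32 to 4.6, Klrd1 at 7.05 against 4.45 to 5.26, Isg15 at 7.79 against 5.03 to 6.3 and Ppl at 5.09 against 4.31 to 4.69. Null 2 had Tox at 5.18 against 4.33 to 4.73. Klre1 in wildtype 5 was 5.47 against 4.33 to 4.9, and H4c9 in null 4 was 11.13 against 9.85 to 10.37.

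The difference of TRBV6 between bright and other samples was larger by 5.62 log2 units in null than in wildtype samples, by the interaction of the bright group with genotype. It rests on 1 bright null sample, and no p is given because T cell receptor genes belong to what chose the samples. Over all genes 5 had such an interaction in limma at an adjusted p under 0.05, and 337 at an unadjusted p under 0.05.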

How the results depend on the processing

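The counts of 781 higher and 531 lower genes depended on the samples and on the model. Leaving out each sample in turn gave 11 to 1205 higher and 1 to 1097 lower, and wildtype samples alone gave 12 and 1. BeadChip 1 alone, BeadChip 2 alone and null samples alone gave 0 and 0 in limma, where 2158, 1408 and 1696 genes had an unadjusted p under 0.05. These subsets hold fewer samples. Median scaling gave 502 and 55, no detection filter 485 and 344, array weights 1959 and 1986, and no BeadChip term 239 lower. With Cd3g as a continuous term 844 were lower. The cause of these shifts was not tested. Among the 9 other samples, an alternative chosen after seeing the data, Cd3g as a continuous term called 1 gene, Cd3g itself, and 0 lower, with 2461 at an unadjusted p under 0.05. A replicate block gave 1 higher and 0 lower. Samples of equal number deviated together with correlations of -0.26 to 0.68, so the numbers do not pair the samples. Under that block Nfatc1 reversed to -0.19, Ms4a1 to -0.99, Cdc6 to 0.15 and Cdc45 to 0.033. Cd6 reversed to -1.23 on BeadChip 1 alone and Klre1 to -0.46 in null samples alone. Over 78 named genes with a test and 30 alternatives, 1602 results kept direction and side of the threshold, 679 lost the call, 5 gained one and 6 reversed. Levels near 4 are background and hide differences.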
